A study of Homo sapiens with 6 samples.

Results

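The replication-dependent histone genes were followed in HEK293T cells that carried either an empty plasmid or one for ppk1. That gene comes from bacteria and encodes polyphosphate kinase, an enzyme that joins phosphates into long chains. The family was chosen by gene symbol: every symbol starting with HIST1H, HIST2H, HIST3H or HIST4H, except those ending in PS and a digit, which mark pseudogenes. This gave 76 genes of the 58051 counted, of which 75 matched GENCODE 29, 70 as protein-coding genes and 5 as pseudogenes, and the family was picked for description with earlier results of the same contrast known. Its fold changes and adjusted p-values are therefore a description and not independent evidence.

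HEK293T is a human embryonic kidney line that also carries the SV40 T antigen. Cells were transfected with pcDNA3.1- (empty vector, 3 libraries) or with pcDNA3.1-ppk1 (ppk1, 3 libraries) by a Lipofectamine reagent, kept in OptiMeM and harvested after 48 hours. The labels give pcDNA3.1-ppk1 for each ppk1 library, while the shared protocol also names an HA-tagged ppk1 plasmid, more than 1 Lipofectamine reagent and a range of plasmid amounts, without saying which library got which reagent or amount. The design text pairs an empty-vector and a ppk1 library as matched biological replicates, lettered B, C and D. Transfection was transient, the share of cells that took up plasmid is not given in the sources used here, and the RNA of ppk1 itself was not analysed here. In bulk RNA, fewer cells of a kind and less RNA per cell cannot be told apart.

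The core histones H2A, H2B, H3 and H4 form the nucleosome, and the linker histone H1 binds the DNA between nucleosomes. Their replication-dependent genes lack introns for the most part, lie in clusters and are read mainly in S phase, when new DNA needs packing. Their messengers usually end not in a poly(A) tail but just behind a short RNA hairpin, the histone stem-loop, which is bound by SLBP and is cut by a machinery that includes the U7 small nuclear ribonucleoprotein. Some of these genes also make a longer, polyadenylated form when that cut is bypassed, for example in cells that leave the cell cycle.

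That 3' end matters here because the libraries were made from RNA selected by its poly(A) tail. The values below therefore count histone RNA that passed that selection, and not the whole histone messenger of the cell. The family held between 0.0160% and 0.0195% of all counts in each library, 50445 counts in all 6. Library totals lay between 40851783 and 67122986 counts, and 3 counts, taken as the limit that a count of 0 allows, equalled 0.0449 to 0.0734 counts per 1000000 (CPM).

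The stem-loops are shown because they mark where the usual messenger ends and how far the annotated transcripts reach beyond it. A hairpin of 16 bases, beginning with GGC, with a stem of 6 base pairs, a loop of 4 pyrimidines and at most 1 G-T pair in the stem, was searched in the GENCODE 29 transcripts of each gene. It was found in 29 members, in 5 forms. Among protein-coding genes it was present in 27 of 70 members (38.6%) and in 240 of 19614 genes outside the family (1.22%). The search covers annotated bases only, and a hairpin beyond the annotated end is missed. Among members without a match, the longest transcript had 381 bases for HIST1H2BK, 411 for HIST1H3B and 2411 for HIST1H3G. The 38.6% is therefore not the share of these genes that have a hairpin. Capitals mark the hairpin, lower case the 4 bases on each side, and the sequences are written 5′ to 3′ as DNA from GENCODE 29 transcripts.
HIST1H2AC: caaaGGCTCTTTTCAGAGCCcccc
HIST3H2A: taaaGGCTCTTTTCAGAGCCacct
HIST1H2AG: caacGGCTCTTTTCAGGGCCaccc
HIST3H2BB: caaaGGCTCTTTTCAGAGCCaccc
HIST1H3E: caaaGGCTCTTCTCAGAGCCaacc
HIST1H3H: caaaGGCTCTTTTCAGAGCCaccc
HIST1H4H: caaaGGCCCTTTTCAGGGCCgccc
HIST1H4I: aaaaGGCCCTTTTTAGGGCCccta
HIST2H4A: caaaGGCCCTTTTTAGGGCCgacc

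The form of HIST1H2AC and HIST3H2A was the commonest, with 18 members. The H4 genes carried a form of their own, as in HIST1H4H, which 5 members shared. Against the commonest form of its class, and counting from 1 at the hairpin's 5′ end, HIST1H2AG differed by A13G, HIST1H3E by T8C, and HIST1H4I and HIST2H4A by C10T. The C10T form was found in 3 members, namely HIST2H4A, its near-copy HIST2H4B and HIST1H4I, and A13G in 2, HIST1H2AG and HIST2H2BD. HIST1H2AC, HIST3H2BB and HIST1H3H, which fell with ppk1, and HIST3H2A, which rose, had the same 16 bases.

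In 21 members an annotated transcript ran at least 100 bases past the hairpin, in 8 it stopped within that distance, and in 47 no annotated transcript held a hairpin. Of the genes shown, HIST1H4I had 212 annotated bases beyond its hairpin, HIST3H2A 390, HIST1H3H 769, HIST1H2AC 1128, HIST2H4A 1167, HIST1H4H 1655, HIST1H2AG 1761, HIST1H3E 1862 and HIST3H2BB 1917. Of the 21 members annotated past the hairpin 18 could be tested, while of the 8 that stopped near it 2 could. The release of the annotation behind the counts is not given in the sources used here, so these lengths describe GENCODE 29 and not the counted models.

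Many members are near-copies, and how reads that match several places were counted is not given in the sources used here. In 18 members over 50% of the transcript's 50-base words occurred in another gene too, and in 5 all of them did. At a limit of 95% there were 9 such genes, which held 362 counts together, and 1 of them, HIST2H4A, was tested. Values of such genes are uncertain as to which copy the RNA came from.

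Of the 76 members, 38 had enough counts to be tested, and the other 38 reached at most 17 counts in any library, 6 of them with none at all. With ppk1, 14 of the 38 were lower and 3 were higher at an adjusted p under 0.05 (edgeR quasi-likelihood test with the matched letter as a block, Benjamini-Hochberg over 19574 genes). Across all genes tested, 9.08% were called, 5.04% lower and 4.04% higher. Because the family was picked on this contrast, nothing is read from its count, or those of its classes and clusters, beside these shares. The fold changes of the 14 genes that fell ran from -2.72 to -0.34 on the log2 scale, and 3 of them changed by at least 2-fold. Those of the 3 that rose ran from 0.31 to 1.36, with 1 at least 2-fold. The median over the 38 was -0.29, with 28 values below 0 and 10 above, and over all genes tested it was 0.01. The 21 genes that were not called ran from -0.73 (HIST1H2BL) to 0.97 (HIST1H2BG), and 7 of them had an unadjusted p under 0.05. HIST1H2BL had 10, 17 and 9 counts with ppk1 and HIST1H2BG 7, 11 and 8 with the empty vector, near the filter's minimum count of 10. Each was thus tested largely through the group where it was higher.

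**Figure D1:**
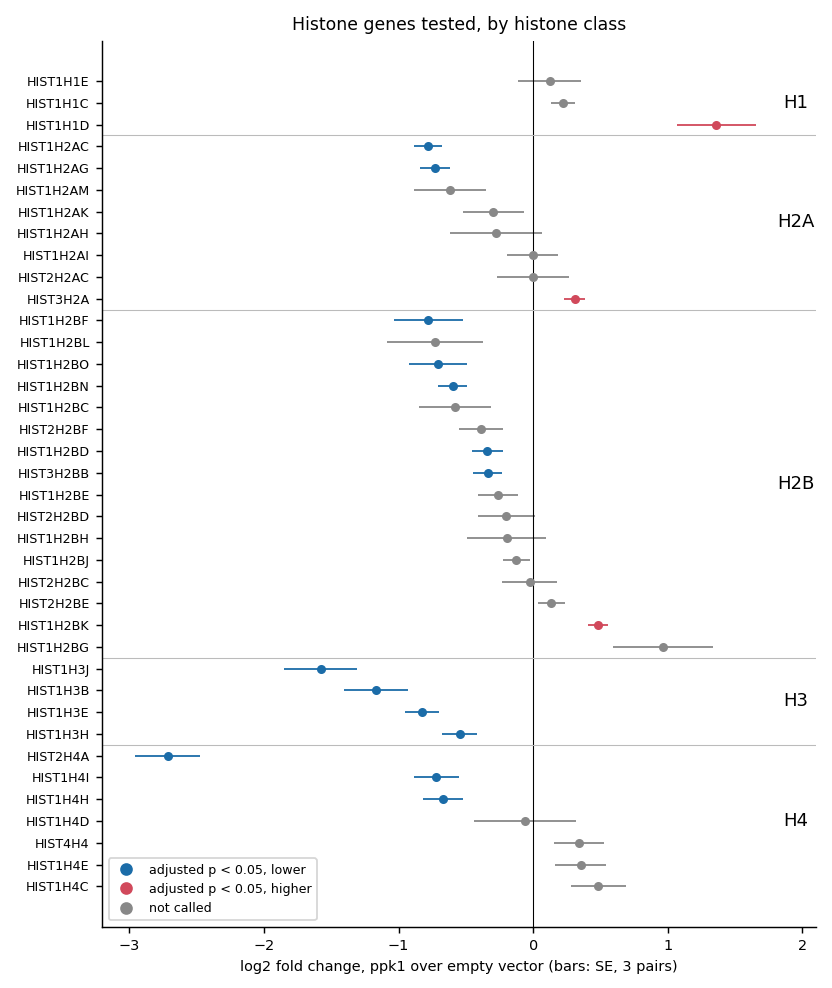
Log2 fold change of ppk1 over empty vector (x axis) for each of the 38 histone genes tested (y axis), grouped by histone class; points are edgeR estimates over 3 matched pairs, bars 1 standard error derived from the edgeR F statistic, and colour marks the call. All 4 H3 genes lie left of 0, and HIST2H4A lies farthest left at -2.72.

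The 3 libraries of 1 group lay wholly below those of the other in CPM for 14 members that were lower with ppk1 and wholly above for 4 that were higher, the latter being the 3 that rose and HIST1H2BG. The former are not the same 14 as those called lower. They include HIST1H2BE and HIST2H2BD, which were not called, and leave out HIST1H2BO and HIST1H2BD, which were. Nothing is read from the separation of HIST1H2BG, which was tested largely through its ppk1 libraries. The shares over all genes tested were 12.6% lower and 13.0% higher. Every gene that fell was lower with ppk1 in each of the 3 pairs (14 of 14), and every gene that rose was higher in each (3 of 3). These genes were called on the same pairs, so this agreement follows in large part from the call and is no separate support. Without the pairing, the same edgeR test called 7 members lower and 3 higher, all of them among the genes called with it.

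Among the linker histones, HIST1H1D, which encodes H1.3, rose. It had 0.227, 0.293 and 0.343 CPM in empty-vector libraries B, C and D and 0.644, 0.730 and 0.838 CPM in ppk1 libraries B, C and D. The groups did not overlap, although every level was below 1 CPM. Its log2 fold change was 1.36 (SE 0.29, edgeR adjusted p = 0.00119, n = 3 pairs), and DESeq2 gave an adjusted p of 0.106.

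HIST1H1C, which encodes H1.2, held 90.5% of the class's counts. It had 14.7, 14.7 and 16.7 CPM with the empty vector and 16.3, 19.4 and 18.1 CPM with ppk1, so the highest control lay inside the ppk1 range. It was not called (log2 fold change 0.22, SE 0.09, edgeR adjusted p = 0.103). HIST1H1E, which encodes H1.4, had 0.663, 0.609 and 2.35 CPM with the empty vector and 1.18, 1.08 and 1.22 CPM with ppk1. Its empty-vector library D stood above all others, and the log2 fold change of 0.12 was not called (SE 0.23, edgeR adjusted p = 0.800). Without pair D the log2 fold change was 0.81 with an adjusted p of 0.0367, and without pair B it was -0.23. The class thus had 3 tested genes of 6, none lower and 1 higher, with a median of 0.22.

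Among the H2A genes, 2 of 8 tested fell and 1 rose, with a median of -0.29. HIST1H2AC had 8.64, 11.0 and 12.5 CPM with the empty vector and 5.87, 6.28 and 6.32 CPM with ppk1. Every ppk1 library was below every control, and the ppk1 libraries were close to each other. The log2 fold change was -0.78 (SE 0.10, edgeR adjusted p = 5.22e-07, n = 3 pairs), a mean of 10.7 ± 1.93 CPM against 6.16 ± 0.249 CPM (SD, n = 3 each). HIST1H2AG had 7.23, 9.03 and 9.11 CPM with the empty vector and 5.05, 4.84 and 5.26 CPM with ppk1. Here too the groups were apart, and the fold change was -0.73 on the log2 scale (SE 0.11, edgeR adjusted p = 4.44e-06).

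HIST3H2A, the H2A gene of the small HIST3 cluster and the holder of 57.1% of the class's counts, went the other way. Its levels were 21.5, 22.1 and 23.2 CPM with the empty vector and 26.9, 28.2 and 27.4 CPM with ppk1. The groups did not overlap and each was narrow. The log2 fold change was 0.31 (SE 0.08, edgeR adjusted p = 0.00781), and without pair C the adjusted p was 0.341.

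The H2B class was the broadest in the data, with 16 of 23 genes tested, 5 of them lower, 1 higher and a median of -0.30. HIST1H2BK rose: it had 30.1, 33.9 and 37.4 CPM with the empty vector and 43.3, 51.7 and 46.3 CPM with ppk1. No control reached the lowest ppk1 library, and the log2 fold change was 0.48 (SE 0.08, edgeR adjusted p = 1.39e-05). This gene held 46.3% of the class's counts and 23.6% of the family's, and 74.1% of its transcript's 50-base words also occur in other genes, among them the H2B gene H2BFS. HIST1H2BJ, the H2B gene with the most counts after HIST1H2BK, had 7.80, 8.87 and 10.9 CPM with the empty vector and 8.34, 7.93 and 8.73 CPM with ppk1. Its groups overlapped, and it was not called (log2 fold change -0.12, SE 0.10, edgeR adjusted p = 0.493).

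HIST1H2BN fell from 6.51, 8.67 and 9.25 CPM to 5.12, 5.42 and 5.36 CPM, with a log2 fold change of -0.60 and SE of 0.11 (edgeR adjusted p = 0.000155). No ppk1 library reached the lowest control. In GENCODE 29 this gene overlaps HIST1H2AL on its own strand and HIST1H2AK on the other, and whether the counting used the strand is not given in the sources used here. HIST3H2BB, the divergent neighbour of HIST3H2A, fell from 7.06, 7.38 and 7.76 CPM to 6.14, 6.01 and 5.34 CPM. Its groups were apart by a smaller margin (log2 fold change -0.34, SE 0.11, edgeR adjusted p = 0.0395).

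The remaining 3 H2B genes that fell were near the threshold. HIST1H2BO had 0.928, 1.69 and 1.47 CPM with the empty vector and 0.823, 0.668 and 0.933 CPM with ppk1 (log2 fold change -0.71, SE 0.22, edgeR adjusted p = 0.0269). HIST1H2BF had 0.776, 0.880 and 1.08 CPM against 0.689, 0.459 and 0.383 CPM (log2 fold change -0.78, SE 0.25, edgeR adjusted p = 0.0428). HIST1H2BD had 5.91, 7.79 and 8.10 CPM against 5.05, 7.09 and 5.03 CPM (log2 fold change -0.34, SE 0.11, edgeR adjusted p = 0.0480). The groups overlapped for HIST1H2BO and HIST1H2BD, which were lower within each pair, and did not for HIST1H2BF. Without pair C the adjusted p was 0.675 for HIST1H2BO, 0.323 for HIST1H2BF, 0.125 for HIST1H2BD and 0.300 for HIST3H2BB. Without pair D it was 0.286 for HIST1H2BF, 0.326 for HIST1H2BD and 0.151 for HIST3H2BB. Without the pairing these 4 genes were not called, with adjusted p-values of 0.129, 0.135, 0.262 and 0.107 in that order.

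All 4 H3 genes that could be tested fell, with a median of -0.998 on the log2 scale, while the other 11 of the class had too few counts. Over all genes tested 5.04% were lower, and nothing is read from the count of 4 beside that share. HIST1H3E, with 45.6% of the class's counts, had 5.30, 6.84 and 7.54 CPM with the empty vector and 3.25, 4.59 and 3.18 CPM with ppk1. No ppk1 library reached a control, and the log2 fold change was -0.83 (SE 0.12, edgeR adjusted p = 4.52e-06). HIST1H3J had 0.682, 1.22 and 1.08 CPM with the empty vector and 0.284, 0.417 and 0.263 CPM with ppk1. These groups were apart as well (log2 fold change -1.58, SE 0.27, edgeR adjusted p = 4.65e-05), but the gene overlaps HIST1H2AM on the same strand, and 40.9% of its transcript's 50-base words occur elsewhere too.

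HIST1H3B fell from 0.890, 1.17 and 1.64 CPM to 0.584, 0.501 and 0.479 CPM. The spread of the controls was wider than that of the ppk1 libraries, and the groups did not overlap (log2 fold change -1.17, SE 0.24, edgeR adjusted p = 0.000595). DESeq2 gave an adjusted p of 0.0642. HIST1H3H fell from 3.69, 6.09 and 4.92 CPM to 2.93, 3.63 and 3.35 CPM, with the highest ppk1 library just under the lowest control. Its log2 fold change was -0.55 (SE 0.13, edgeR adjusted p = 0.00306), its adjusted p without pair C was 0.234, without the pairing 0.101 and by DESeq2 0.0729.

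**Figure D2:**
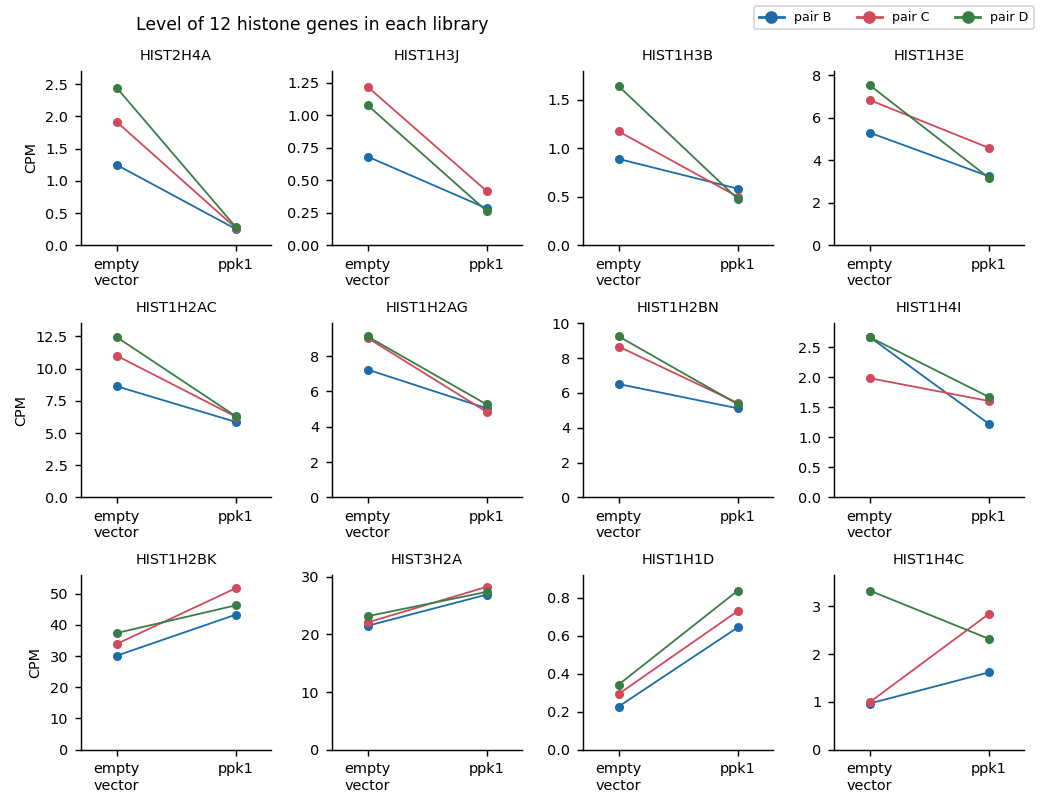
CPM (y axis, from 0, a scale of its own in each panel) of 12 histone genes with the empty vector and with ppk1 (x axis); each line joins the 2 libraries of a matched pair. HIST2H4A drops to between 0.255 and 0.287 CPM in all 3 ppk1 libraries, HIST1H2BK, HIST3H2A and HIST1H1D rise in each pair, and HIST1H4C goes down in pair D while going up in the others.

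Of the 7 H4 genes tested, 3 fell and none rose, with a median of -0.06. HIST2H4A (ENSG00000270882, chromosome 1) had the most negative fold change of the family. It had 66, 85 and 100 counts in empty-vector libraries B, C and D, or 1.25, 1.92 and 2.45 CPM, and 17, 13 and 12 counts in ppk1 libraries B, C and D, or 0.255, 0.271 and 0.287 CPM. Every control was several times above every ppk1 library. The log2 fold change was -2.72 (SE 0.24, edgeR adjusted p = 7.02e-12), which corresponds to 6.57-fold lower. Without the pairing the adjusted p was 0.000404.

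Of HIST2H4A's 50-base words, 97.5% also occur in HIST2H4B (ENSG00000270276), which lies on the same chromosome. HIST2H4B had 1, 4 and 5 counts with the empty vector and 2, 1 and 0 with ppk1, too few for a test. When the counts of both copies were summed, HIST2H4A and HIST2H4B together had an edgeR adjusted p of 8.37e-12. HIST2H4A also overlaps HIST2H3C on the opposite strand, for which 1 count was recorded in the 6 libraries.

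HIST1H4I, which has the same hairpin form as HIST2H4A, fell from 2.67, 1.99 and 2.67 CPM to 1.23, 1.61 and 1.68 CPM. The groups were apart, and the log2 fold change came to -0.72 (SE 0.17, edgeR adjusted p = 0.00330), and without pair B the adjusted p was 0.114. HIST1H4H fell from 2.59, 3.25 and 3.40 CPM to 1.57, 2.27 and 1.99 CPM (log2 fold change -0.67, SE 0.15, edgeR adjusted p = 0.00205). No ppk1 library of HIST1H4H reached a control. Without the pairing the adjusted p of HIST1H4I was 0.0533 and that of HIST1H4H 0.0587, and DESeq2 gave 0.120 and 0.0709.

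HIST1H4C had 0.966, 0.993 and 3.33 CPM with the empty vector and 1.62, 2.84 and 2.32 CPM with ppk1. As for HIST1H1E, empty-vector library D was the highest of all 6 libraries, and the groups overlapped. The log2 fold change of 0.48 was not called (SE 0.20, edgeR adjusted p = 0.128), while without pair D it was 1.11 with an adjusted p of 2.94e-05 and without pair C it was 0.04 with an adjusted p of 0.976.

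Summed over their members, the classes differed in what they showed. The whole family summed to 155, 175 and 195 CPM with the empty vector and to 162, 180 and 170 CPM with ppk1, and the groups overlapped. The log2 ratio was 0.07 in pair B, 0.04 in pair C and -0.20 in pair D. If every read was counted once, sums do not depend on how reads were split between copies within a class. They can depend on it where sequence is shared across classes, as by HIST1H2AM and HIST1H3J, or with genes outside the family, as by HIST1H2BK and H2BFS. If reads that match several places were dropped, which is not known here, the sums leave them out. The sums are given without a test because the members were picked with results known.

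The H3 sum was 11.2, 15.6 and 15.7 CPM with the empty vector and 7.49, 9.37 and 7.80 CPM with ppk1. It was lower in every pair, by log2 ratios of -0.59, -0.74 and -1.01, and its groups did not overlap. H1 summed to 15.6, 15.8 and 19.4 CPM against 18.2, 21.3 and 20.2 CPM, higher in every pair with overlapping groups. Without HIST1H1C the H1 log2 ratios were 0.99 in pair B, 0.75 in pair C and -0.34 in pair D, so that sum was not higher in every pair. H4 summed to 10.9, 11.4 and 15.8 CPM against 8.16, 11.1 and 10.2 CPM, lower in every pair with overlapping groups. Without HIST2H4A the H4 log2 ratios were -0.28 in pair B, 0.20 in pair C and -0.43 in pair D, so that sum was not lower in every pair.

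The sums of H2A and H2B, like that of H1, were set largely by 1 gene each. H2A summed to 41.2, 46.1 and 49.8 CPM against 41.2, 43.3 and 43.0 CPM, but without HIST3H2A to 19.7, 24.0 and 26.7 CPM against 14.3, 15.1 and 15.6 CPM. H2B summed to 75.8, 86.1 and 94.6 CPM against 86.9, 95.2 and 88.5 CPM, but without HIST1H2BK to 45.7, 52.2 and 57.2 CPM against 43.6, 43.5 and 42.2 CPM. Both groups overlapped in the full sums, and neither did once that gene was left out, when all ppk1 libraries lay below all controls. Leaving out the 3 genes that rose, the other 73 members summed to 103, 119 and 134 CPM against 91.1, 99.6 and 95.1 CPM, again with every ppk1 library below every control. Leaving out genes because they rose pulls such a sum down by construction.

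**Figure D3:**
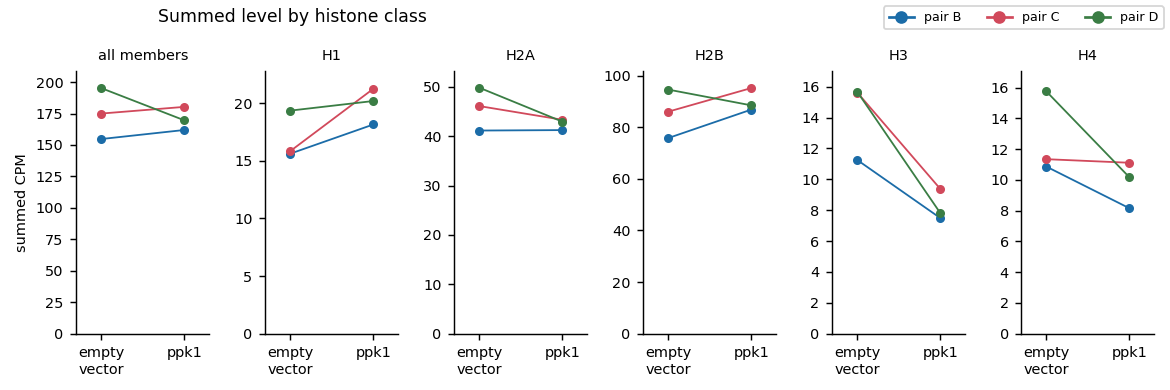
Summed CPM (y axis, from 0, a scale of its own in each panel) of all 76 histone genes and of each histone class with the empty vector and with ppk1 (x axis); each line joins a matched pair. The H3 lines all descend, to between 7.49 and 9.37 CPM, while the lines of the whole family go both ways.

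By cluster, the genes lie on chromosome 6 (HIST1, 55 members), chromosome 1 (HIST2, 16 members, and HIST3, 4 members) and chromosome 12 (HIST4, 1 member). In HIST1, 12 of 29 tested members fell and 2 rose, with a median of -0.34. In HIST2, HIST2H4A was the single call among 6 tested, with a median of -0.11. In HIST3, of 2 tested, HIST3H2A rose and HIST3H2BB fell. HIST4H4, the only HIST4 gene, was not called. Over all genes tested 5.04% were lower and 4.04% higher, and nothing is read from the clusters' counts beside those shares. The HIST3 sum was 28.6, 29.5 and 30.9 CPM with the empty vector and 33.1, 34.3 and 32.7 CPM with ppk1, so it did not overlap and was higher with ppk1, and HIST3H2A held 79.1% of its counts.

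Many histone genes start back to back, so that a short stretch serves as promoter for both. In GENCODE 29, 13 such pairs of members had starts under 1000 bases apart, and 8 of them had both genes tested. A ratio of their counts within a library does not depend on how libraries were scaled. It did not overlap between the groups for 3 of the 8 pairs. Over all divergent neighbours tested the share was 26.1% of 1274 pairs, and nothing is read from the family's count beside it.

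The bases between the 2 starts are shown for a pair of which 1 gene rose and the other fell, and for a pair of which 1 gene was not called and the other fell. The sequences are from RefSeq, build GRCh38.p14, written 5′ to 3′ towards the H2A gene, and capitals mark CCAAT and TATAAA on either strand, where TATAAA and its reverse complement may share bases. The stretch between HIST3H2A and HIST3H2BB, named H2AC25 and H2BC26 in RefSeq, is chr1:228457874-228458102, minus strand, 229 bases, with 3 CCAAT and 0 TATAAA. That between HIST1H2BJ and HIST1H2AG, named H2BC11 and H2AC11 in RefSeq, is chr6:27132796-27133042, plus strand, 247 bases, with 4 CCAAT and 3 TATAAA.
HIST3H2A and HIST3H2BB: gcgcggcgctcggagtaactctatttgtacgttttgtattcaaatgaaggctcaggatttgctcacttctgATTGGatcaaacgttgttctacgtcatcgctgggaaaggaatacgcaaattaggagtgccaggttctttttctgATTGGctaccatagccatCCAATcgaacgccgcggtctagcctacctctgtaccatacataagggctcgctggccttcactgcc
HIST1H2AG and HIST1H2BJ: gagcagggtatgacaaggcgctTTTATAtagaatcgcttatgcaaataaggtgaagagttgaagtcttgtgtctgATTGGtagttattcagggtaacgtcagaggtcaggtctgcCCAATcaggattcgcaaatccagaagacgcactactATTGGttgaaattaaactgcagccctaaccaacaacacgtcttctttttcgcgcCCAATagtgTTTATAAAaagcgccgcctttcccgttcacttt

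RefSeq gave a promoter for 60 of the 76 members. In the 250 bases before the start, CCAAT on either strand was found in 50 of the 60 (83.3%) and in 32.9% of 27245 other promoters. TATAAA on either strand was found in 40 of the 60 (66.7%) and in 11.0% of the others. A match describes the letters and is not a binding site.

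HIST3H2A had 3.04, 2.99 and 2.98 counts for each count of HIST3H2BB in empty-vector libraries B, C and D and 4.38, 4.70 and 5.13 in ppk1 libraries B, C and D, with 234 bases between the GENCODE 29 starts. The 3 controls were nearly equal, and all 3 ppk1 libraries were above them. HIST1H2BJ had 1.08, 0.983 and 1.20 counts for each count of HIST1H2AG with the empty vector and 1.65, 1.64 and 1.66 with ppk1, with 292 bases between the starts. Here the ppk1 libraries were nearly equal and above the controls.

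The third such pair had HIST1H3J and HIST1H2BO, with starts 357 bases apart. HIST1H3J overlaps HIST1H2AM on the same strand, and HIST1H2AM starts nearer to HIST1H2BO, at 314 bases. Both pairs are among the 8, so the 8 are not all separate stretches. HIST1H3J had 0.735, 0.720 and 0.733 counts for each count of HIST1H2BO with the empty vector and 0.345, 0.625 and 0.282 with ppk1. Its controls were nearly equal, and every ppk1 library was below them although both genes fell. In the other 5 pairs the ratios overlapped. Among them was HIST1H2AM over HIST1H2BO, at 0.755, 0.32 and 0.617 with the empty vector and 0.418, 0.656 and 0.692 with ppk1. A further example is HIST1H2BC over HIST1H2AC, at 0.0614, 0.0574 and 0.0864 with the empty vector and 0.0714, 0.0698 and 0.0947 with ppk1.

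**Figure D4:**
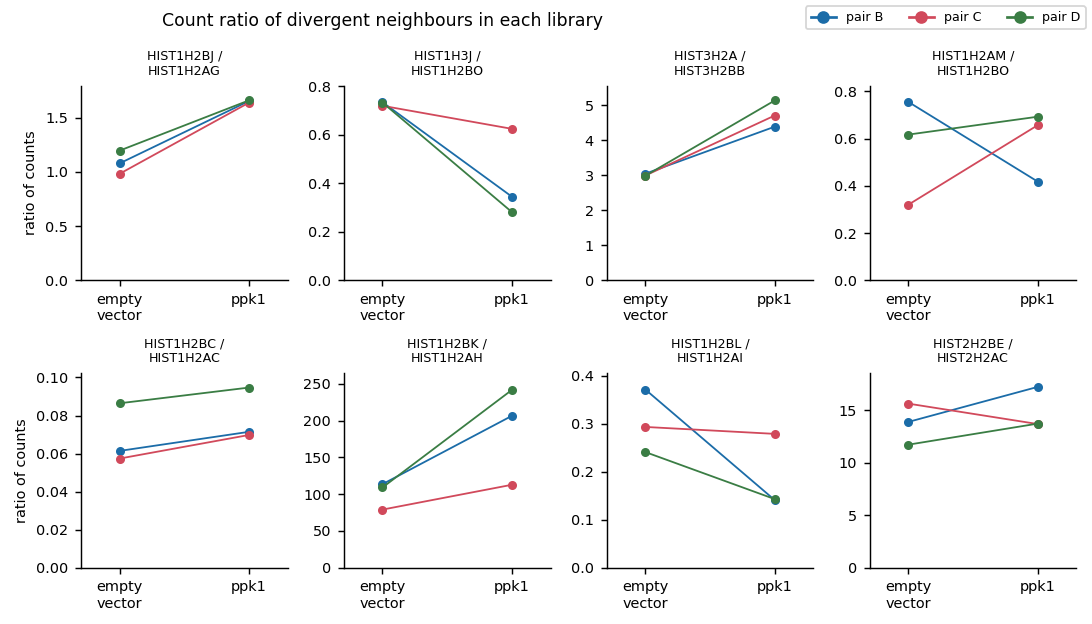
Ratio of the counts of divergent neighbours (y axis, from 0, minus-strand gene over plus-strand gene, a scale of its own in each panel) with the empty vector and with ppk1 (x axis) for the 8 pairs tested; each line joins a matched pair of libraries. The groups are apart for HIST1H2BJ over HIST1H2AG, HIST1H3J over HIST1H2BO and HIST3H2A over HIST3H2BB, and overlap in the other 5.

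Split by the annotated 3' end, 9 of the 18 tested members with a transcript past the hairpin fell and 1 rose, with a median of -0.36. Of the 18 tested members without an annotated hairpin, 5 fell and 2 rose, with a median of -0.20. These 18 are not a class of 3' end, because a hairpin beyond the annotated end is missed. They include HIST1H2BK and HIST1H3B, whose longest transcripts have 381 and 411 bases, and HIST2H2BC, for which no annotated transcript was found. Neither of the 2 tested members whose transcript stops near the hairpin was called. Among 12 members that background knowledge names as also having a polyadenylated form, 10 were tested, 3 fell and 2 rose, with a median of 0.01. The difference between these groups was not tested. The shares over all genes tested were 5.04% lower and 4.04% higher, and nothing is read from the groups' counts beside them.

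Of 26 genes for histone transcription, 3' end processing and decay, 1 fell and none rose, beside 5.04% lower and 4.04% higher over all genes tested, and the median was 0.03. SLBP, which binds the stem-loop, had 85.4, 90.0 and 101 CPM with the empty vector and 91.7, 95.5 and 95.1 CPM with ppk1, with overlapping groups (log2 fold change 0.04, SE 0.07, edgeR adjusted p = 0.814). The log2 fold changes of NPAT, which drives histone transcription, and of CASP8AP2, its partner in the histone locus body, were -0.04 and -0.17. Those of the U7 particle's proteins LSM10 and LSM11 were 0.20 and -0.12, and that of ZNF473, which acts with them, was -0.16. None of these 6 was called. ZCCHC6, a terminal uridyltransferase of the list, fell (log2 fold change -0.25, SE 0.08, edgeR adjusted p = 0.0353) and was not called without the pairing (adjusted p = 0.172).

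A list of histone genes outside the HIST clusters, mostly replication-independent with polyadenylated messengers, had 1 call among 12. This was H2AFX, which encodes H2A.X and is known to make both a stem-loop-ended and a polyadenylated messenger, with 107, 115 and 102 CPM against 119, 154 and 126 CPM (log2 fold change 0.29, SE 0.07, edgeR adjusted p = 0.00699, without the pairing 0.114). Its ppk1 libraries were all above its controls, and the median of the 12 was 0.10. None of 20 histone chaperone genes was called by edgeR, with 2 at an unadjusted p under 0.05 and a median of 0.08. Of 24 S phase genes, RRM2, a subunit of ribonucleotide reductase, rose (log2 fold change 0.29, SE 0.07, edgeR adjusted p = 0.00733, without the pairing 0.0637), and the other 23 were not called. Their median was 0.02. Over all genes tested, 9.08% were called, 5.04% lower and 4.04% higher. Lists of this size would hold few calls at such shares, so the counts are not read as a lack of response.

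RNAs that lack a poly(A) tail were looked at because the libraries were selected for that tail. Of 25 such symbols, found on 33 rows of the count table, 3 had enough counts. RN7SL2, an RNA of the signal recognition particle, had 55.0, 83.1 and 175 CPM with the empty vector and 64.9, 2.94 and 43.5 CPM with ppk1. RN7SL2 was highest in empty-vector library D and low in ppk1 library C, and its groups overlapped (log2 fold change -1.91, SE 0.31, edgeR adjusted p = 1.74e-05, without the pairing 0.251). Empty-vector library D was also the highest for HIST1H1E, HIST1H4C and the family's sum (195 CPM). The same held for several genes that fell, among them HIST2H4A (2.45 CPM) and HIST1H2AC (12.5 CPM). For others that fell, such as HIST1H3J and HIST1H3H, empty-vector library C was the highest. SNORD17 and SCARNA13 were not called, with log2 fold changes of 0.04 and 0.02. The part of poly(A) selection in the histone results was not tested.

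Of 8 genes that mark the HEK293 line all were expressed, with KRT18 and INA higher and NEFL lower with ppk1 by the paired edgeR test. Without the pairing none of the 3 was called, with adjusted p-values of 0.0629 for KRT18, 0.141 for INA and 0.0776 for NEFL. Of 6 markers of other cell types, PTPRC, COL1A2, PECAM1 and UMOD had too few counts for a test, with at most 0.215 CPM, COL1A1 was expressed at 15.4 to 20.6 CPM, and ALB fell at levels of 0.215 to 0.832 CPM. The part of these markers in the histone results was not tested.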

How the data were processed

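Per the labels, RNA was poly(A)-selected and made into directional libraries, and the authors deposited 1 table of whole-number read counts for 58051 genes in 6 libraries. The submitters' processing notes name bcl2fastq 2.20, Trimmomatic, STAR, HTSeq, edgeR, DESeq, Cufflinks and Cuffdiff without roles, and genome build, annotation, strand setting and treatment of multiply mapped reads are not given in the sources used here. The members and gene lists were chosen with earlier results of these data known.

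All genes passing filterByExpr (minimum count 10) were fitted with edgeR 4.0.16 in R 4.3.3 (TMM scaling, quasi-likelihood test, replicate letter as block, Benjamini-Hochberg threshold 0.05). The script was tested on simulated data. The pairing comes from the design text. Deviations from the group means correlated at 0.109, 0.135 and 0.0476 within letters B, C and D and at -0.12 to -0.00506 between letters. Because the deviations of a group cancel out, the values between letters follow in part from those within letters. They are no separate check of the pairing. CPM are counts per 1000000 on TMM-scaled library sizes, with precision limited by 3 libraries a group. Stem-loops, shared sequence and divergent starts came from GENCODE 29 and promoters from RefSeq. Of the 76 members 75 matched GENCODE 29. The biological coefficient of variation was 6.82%.

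Named members were those called (up to 20 with the smallest p), the 2 with most counts in each class, and HIST2H4A and HIST2H4B. In the other lists they were called genes, up to 4 a list, and SLBP, NPAT, CASP8AP2, LSM10, LSM11 and ZNF473. Other genes named were chosen after their values were seen. Alternatives were no block, other scalings and filters, DESeq2 1.42.0, summed copies and leaving out each pair. Pseudogene symbols (14, with 86 counts) were left out.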

Additional observations from a re-analysis of the deposited data

How the results depend on the processing

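The count of 14 members called lower was 7 without the replicate block, 6 with DESeq2, 8 with a mean of at least 50 counts, which left 23 members to test, and 10 with upper-quartile scaling, under which HIST1H2BD, HIST1H2BF, HIST1H2BO and HIST3H2BB lost the call. It ranged from 9 without pair C to 14 without pair B when each pair was left out. The count of 3 called higher ranged from 2 without pair C to 5 without pair D. The median of H1 (0.22) ranged from 0.13 to 0.81 with each pair left out, the latter without pair D. The median of H4 (-0.06) was -0.65 with no filter on low counts, 0.33 with a mean of at least 50 counts and -0.54 with DESeq2, and it ranged from -0.45 without pair D to 0.0495 without pair B. Without its most counted member, the summed log2 ratio went from -0.03 to -0.19 for the family, from 0.23 to 0.47 for H1, from -0.10 to -0.63 for H2A and from 0.08 to -0.26 for H2B. These are means over the pairs, and the H1 value without HIST1H1C was -0.34 in pair D. Apart from the settings named, the cause of these shifts was not tested.

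Of the 17 called members, 7 kept their call in every alternative that gave them a value, namely HIST2H4A, HIST1H2AC, HIST1H2AG, HIST1H2BK, HIST1H2BN, HIST1H3E and HIST1H3J. Over the named members and all alternatives, 170 values kept their side of the threshold, 32 lost the call and 3 gained one. No called value changed sign, and HIST1H1E, which was not called, turned from 0.12 to -0.01 without the replicate block, -0.23 without pair B and -0.13 without pair C. Summing near-copies and the RLE scaling changed none of these calls. The other 38 members, with at most 17 counts in any library, cannot be compared at this depth.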
